A study of Mus musculus with 15 samples.

Results

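Broad domains of H3K27Ac that grew during the conversion of pre-B cells into macrophage-like cells are described here. The genome was tiled into 3 kb windows, and each window was given a level F, its number of distinct tag positions divided by the mean of the same library over all windows that hold a tag. A domain was a run of 3 or more consecutive windows with H3K27Ac F of at least 4 at 48 h post-induction (hpi), and a domain counted as growing when its mean F at 48 hpi was at least 2-fold that at 0 hpi. The rule found 4174 broad domains at 48 hpi, of which 1435 were growing, or 34.4% of those tested. The growing domains were thus chosen by their H3K27Ac values at 0 and 48 hpi, and nothing is tested on those values. They covered 20.6 Mb in 6870 of the 832530 windows that held a tag.

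By the study's description all libraries came from C10 cells, a line derived from the mouse pre-B line HAFTL that carries an estradiol-inducible C/EBPα. Induction was, per the labels, with 100 nM β-estradiol (the study's methods give another concentration) in the presence of the cytokines IL-3 and CSF-1, at 10 nM, and control cells received 0.1% ethanol. H3K4Me1, H3K27Ac and H3K27Me3 were each mapped by ChIP-seq at 0, 3, 12, 24 and 48 hpi, with 1 library per mark and time and 15 in all. All groups would therefore share a single transformed cell line and its transgene. The H3K27Ac libraries of 0 and 3 hpi differ from the rest on chromosome 12, as given below. Whether all libraries came from the same cells was not tested. No group has a replicate, so no difference between times can be set against replicate error and no test between times was made. Intervals given for tags (exact Poisson) and for shares of domains (exact binomial) are 95% intervals that cover counting error only.

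H3K27Ac is placed on nucleosomes of active enhancers and promoters by the coactivators CBP and P300. Long unbroken stretches of it often lie at genes that set a cell's identity, and in macrophages such stretches are built around clustered sites of PU.1, C/EBP and AP-1 factors. H3K4Me1 marks enhancers whether active or only primed, while H3K27Me3 is placed by Polycomb complexes over silent genes. C/EBPα, the factor induced here, drives the granulocyte and macrophage programs and can silence B cell genes.

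The libraries held between 11041458 and 31557475 tags, and F of 4 for H3K27Ac stood for between 73.1 and 84.2 tags in a window. The cell type labels were checked at gene starts. All 10 pre-B markers, among them Cd79a and Pax5, had H3K27Ac F of at least 4 at 0 hpi, with a median of 63.9, and 9 still had it at 48 hpi, with a median of 22.0. Of 10 macrophage markers, 5 reached F of 4 at 0 hpi and 9 at 48 hpi, with medians of 4.49 and 27.3, and Emr1 (F4/80) stayed at 0.710 at 48 hpi. The H3K27Ac libraries of 0 and 3 hpi stood apart from the rest in a stretch of 57 kb on chromosome 12 (mm9 chr12:114669001-114726000), where they held 612 and 502 tags while the other 13 libraries together held 7. What sets these 2 libraries apart, and its part in the results, was not tested. Counts are also given with the 12 hpi library as the start, which uses neither: 572 domains then met the rule, 533 of them overlapping the 1435. With 3 hpi as the start there were 1240.

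The following stretches show where the acetylation lay in 5 growing domains of contrasting history. Each is the 300 bases outside annotated exons with the most H3K27Ac positions at 48 hpi, on the plus strand of mm9, in lower case. Capitals mark matches on either strand to the motifs of C/EBP (TTGCNNAA), PU.1 (GAGGAAGT), AP-1 (TGANTCA), RUNX (TGTGGT), EBF1 (CCCNNGGG), IRF (GAAANNGAA) or an E box (CAGCTG). At most 300 distinct midpoints fit in such a stretch, so the highest counts are close to their ceiling.

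The first lies between genes in the longest growing domain, 136156 bp from the nearest coding start (1810013D10Rik). It held 1, 6, 98, 224 and 216 H3K27Ac tags at 0, 3, 12, 24 and 48 hpi, and 1, 7, 58, 53 and 35 of H3K4Me1. One RUNX match, in reverse, is in capitals.

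chr5:53794501-53794800, domain nearest to Rbpj: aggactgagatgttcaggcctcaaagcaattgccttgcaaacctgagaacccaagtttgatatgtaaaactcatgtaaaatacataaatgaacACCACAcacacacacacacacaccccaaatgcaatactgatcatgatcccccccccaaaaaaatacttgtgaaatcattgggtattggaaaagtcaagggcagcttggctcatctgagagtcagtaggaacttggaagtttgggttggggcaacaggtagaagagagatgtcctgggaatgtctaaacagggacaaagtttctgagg

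The second lies in an intron of Mmp27, 838 bp from its start, in the domain that also holds Mmp8. One RUNX match, in reverse, is in capitals. Here 9, 62, 155, 233 and 210 H3K27Ac tags were counted, so the mark was present at 3 hpi, and H3K4Me1 had 31 tags at 0 hpi and 83 at 3 hpi.

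chr9:7572301-7572600, domain of Mmp8 and Mmp27: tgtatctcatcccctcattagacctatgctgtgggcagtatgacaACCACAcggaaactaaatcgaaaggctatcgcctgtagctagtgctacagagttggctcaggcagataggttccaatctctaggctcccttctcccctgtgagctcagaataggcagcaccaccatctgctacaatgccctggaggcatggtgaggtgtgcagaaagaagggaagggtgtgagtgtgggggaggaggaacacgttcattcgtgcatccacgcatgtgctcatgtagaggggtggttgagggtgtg

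The third lies 10358 bp from the start of Ctsd, outside coding genes. It had 4, 8, 97, 225 and 214 H3K27Ac tags, and its H3K4Me1 tags numbered 4, 12, 87, 59 and 43. No motif searched for is in this window.

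chr7:149584301-149584600, domain of Ctsd: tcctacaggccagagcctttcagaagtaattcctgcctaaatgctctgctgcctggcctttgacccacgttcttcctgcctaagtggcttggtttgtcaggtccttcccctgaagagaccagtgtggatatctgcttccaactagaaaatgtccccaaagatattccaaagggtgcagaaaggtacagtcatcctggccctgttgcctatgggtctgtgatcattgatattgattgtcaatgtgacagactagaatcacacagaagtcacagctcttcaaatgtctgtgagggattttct

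The fourth lies in an intron of Cdh1, 7322 bp from its start, in the domain with the highest ratio of H3K27Ac between 48 and 0 hpi. Its H3K27Ac tags were 3, 0, 54, 206 and 200. H3K27Me3 tags were 13, 4, 16, 3 and 3 in the same 300 bases.

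chr8:109134601-109134900, domain within Cdh1: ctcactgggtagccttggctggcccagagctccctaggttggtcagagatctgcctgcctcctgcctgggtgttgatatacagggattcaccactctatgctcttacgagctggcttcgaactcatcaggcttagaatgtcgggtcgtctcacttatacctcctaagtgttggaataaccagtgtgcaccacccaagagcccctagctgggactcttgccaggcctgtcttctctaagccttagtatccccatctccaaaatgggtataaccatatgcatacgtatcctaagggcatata

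The fifth lies 22704 bp from Tubd1, in a domain that was already acetylated in part before induction. It held 127, 157, 178, 228 and 214 H3K27Ac tags, and at most 2 of H3K27Me3 in any library.

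chr11:86391401-86391700, domain nearest to Tubd1: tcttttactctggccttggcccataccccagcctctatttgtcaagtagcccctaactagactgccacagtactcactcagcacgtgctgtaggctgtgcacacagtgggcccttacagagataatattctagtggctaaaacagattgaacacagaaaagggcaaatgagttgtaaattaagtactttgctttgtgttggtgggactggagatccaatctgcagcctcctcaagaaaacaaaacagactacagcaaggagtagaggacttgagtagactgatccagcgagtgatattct

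In growing domains the mean H3K27Ac F had medians of 2.31, 3.82, 8.28, 13.6 and 13.7 in order of time. The 2739 other broad domains stood at 14.98, 14.1, 14.6, 16.3 and 12.3 at the same times. At 48 hpi the growing domains were therefore about as full as the others, and the values that chose them differ at 0 hpi. They took up 2.94% of all distinct H3K27Ac tags at 0 hpi and 13.5% at 48 hpi. The median ratio was 5.23, and 10% of domains had F under 0.49 at 0 hpi while 10% had more than 6.95. Just inside the 2-fold limit, the domain nearest to Btg1 went from F of 15.1 to 30.1, the domain nearest to Nenf from 11.5 to 23.0 and the domain of Pstpip1 from 9.15 to 18.3. Just outside it, domains of Zmynd8 (9.29 and 18.6), Ppig (5.34 and 10.7) and near Hnrnpa3 (12.1 and 24.1) were left out, so the limit cuts through a continuous range.

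**Figure D1:**
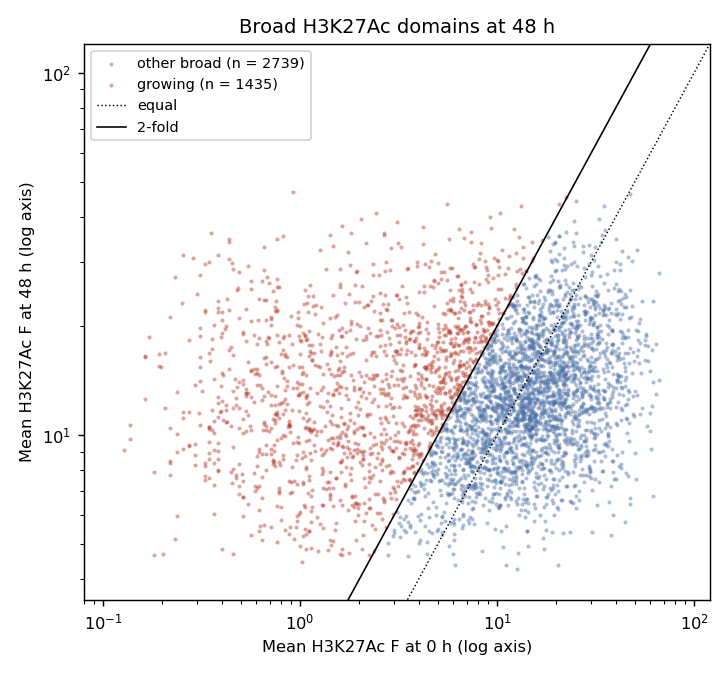
Mean H3K27Ac F of each of the 4174 broad domains at 0 hpi (x) and 48 hpi (y), both on log axes; each point is 1 domain. The 1435 growing domains (red) lie on or above the 2-fold line by construction, spread from F near 0.1 at 0 hpi up to the line without a gap, and the 2739 others (blue) lie below it.

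A comparison of libraries that the rule did not use was possible between 3 and 24 hpi. The 3 hpi library stood apart on chromosome 12, as did the 0 hpi library that the rule used. This comparison therefore crosses the same difference between libraries as the rule, and the part of that difference was not tested. H3K27Ac at 24 hpi was at least 2-fold that at 3 hpi in 1058 growing domains, or 73.7% (71.4 to 76.0), against 9.75% (8.66 to 10.9) of the other broad domains and 31.7% of all of them. The median ratio of 24 to 3 hpi was 3.03 in growing domains and 1.15 in the others. These values are on the scale of F. Setting libraries level in windows with little H3K27Ac multiplies 24 hpi by 1.60 and 3 hpi by 0.72, and in windows full throughout by 0.76 and 0.81. Such factors act on both sets of domains alike, but they move the share of each that passes a 2-fold limit. Between 12 and 48 hpi, which avoids that difference but shares the 48 hpi library with the rule, fewer growing domains passed. H3K27Ac at 48 hpi was at least 2-fold that at 12 hpi in 37.1% (34.6 to 39.7) of them and 1.42% of the others, with median ratios of 1.70 and 0.88. When domains were taken from the 24 hpi library in place of 48 hpi, an alternative chosen after seeing the data, 1350 were growing against 0 hpi. Of the 1435 domains 65.4% overlapped one of them, and 71.6% of the 1350 overlapped one of the 1435.

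**Figure D2:**
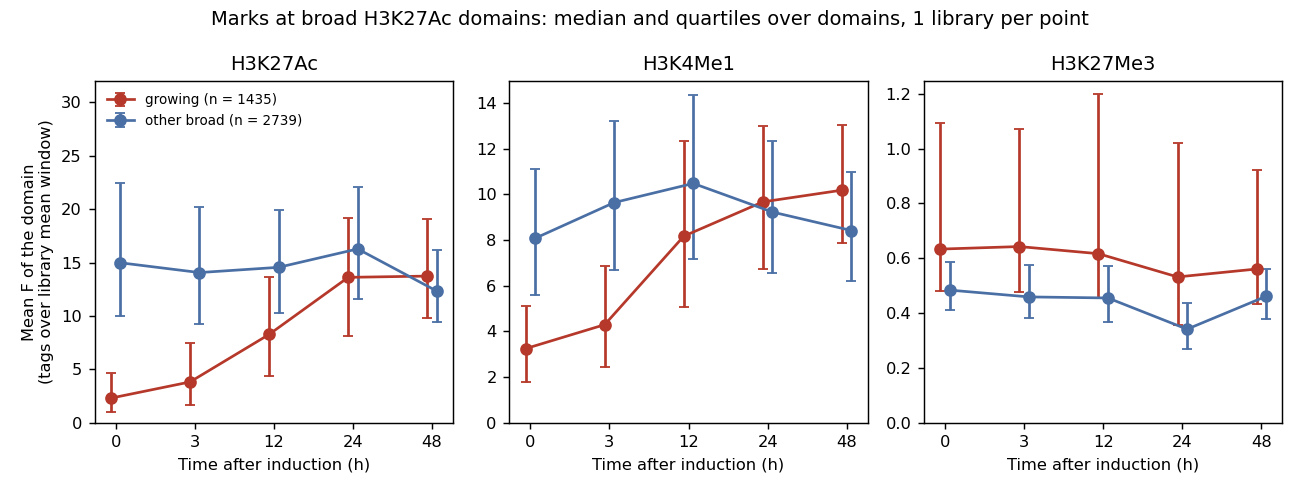
Median and quartiles over domains of the mean F of each mark (y) at the 5 times (x, evenly spaced), for 1435 growing domains (red) and 2739 other broad domains (blue), with 1 library per mark and time. H3K27Ac and H3K4Me1 of growing domains start below the others and end above them at 48 hpi, and H3K27Me3 medians stay under 0.7 throughout.

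The share of the rise is the distance of a domain's H3K27Ac from its 0 hpi level divided by the same distance at the last time. The medians for 3, 12 and 24 hpi were 9.88%, 46.9% and 90.9%, with quartiles of 1.34 and 29.5%, 25.5 and 75.4%, and 64.1 and 119%. At 3 hpi 276 domains were below their 0 hpi level, and at 12 hpi 26 were. At 24 hpi 602 domains were at or above their 48 hpi level. These shares depend on how the libraries are scaled. The median share at 3 hpi was 2.85% when the libraries were set level in windows with little H3K27Ac. At 24 hpi it was 168% on that scale and 65.7% when set level in windows that were full throughout. Whether acetylation at 24 hpi had reached or passed its 48 hpi level therefore cannot be told from these files.

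By the first time at which 50% of the rise was reached, 173 domains (12.1%) were in place at 3 hpi, a further 497 (34.6%) at 12 hpi and 557 (38.8%) at 24 hpi, and 208 (14.5%) were not before 48 hpi. With libraries set level in windows with little H3K27Ac these counts were 56, 439, 893 and 47, and in windows full throughout 101, 416, 505 and 413, so 431 and 398 domains changed class. The classes below are on the scale of F. The classes differed in the values that chose the domains, with a median H3K27Ac F at 0 hpi of 4.54, 2.81, 1.93 and 1.13 and a median ratio of 3.04, 4.88, 6.27 and 9.20 in that order. H3K4Me1 at 0 hpi ran along with these, while H3K27Me3 at 0 hpi had no such order, with a median F of 0.58, 0.65, 0.63 and 0.69. Those in place at 3 hpi had a median H3K4Me1 F of 4.83 at 0 hpi, those of 12 hpi 3.57, those of 24 hpi 2.84 and those of 48 hpi 1.89. A coding start lay inside 43.4%, 42.5%, 35.0% and 19.7% of them. Across the 1435 domains H3K4Me1 at 0 hpi and the share of the rise at 12 hpi had a Spearman rho of 0.295, which is a description over sites of the same libraries. The same measure with H3K27Me3 at 0 hpi was -0.046.

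At 3 hpi H3K27Ac was at least 2-fold that at 0 hpi in 488 growing domains, or 34.0% (31.6 to 36.5), beside 13% of all broad domains. Both values share the 0 hpi library with the rule, and they are given as a description. Among the 1245 domains with F of at least 8 at 48 hpi, the domain with the largest share of the rise at 3 hpi lay inside Nt5c2, which encodes a cytosolic nucleotidase. Its H3K27Ac F was 2.97, 23.1, 10.5, 10.5 and 9.05 over the 5 times. A domain inside Cpt1a, the gateway enzyme of mitochondrial fatty acid oxidation, had 4.23, 16.2, 12.1, 9.34 and 8.55. A domain inside Ets1, a lymphoid transcription factor gene, had 6.36, 23.9, 26.97, 25.6 and 12.97. The order of the later times in these domains depends on how the libraries are scaled. All 3 had H3K4Me1 F above 7 before induction. Among the domains with the smallest shares, given next, those of Wdfy3 and near B530045E10Rik had 9.12 and 7.49 and that of Fcrlb 3.45.

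The smallest shares at 3 hpi belonged to domains that were lower at 3 hpi than at 0 hpi. The domain inside Wdfy3, an autophagy adaptor gene, had F of 7.02, 1.95, 4.23, 6.76 and 14.1. The domain nearest to B530045E10Rik had 9.11, 2.39, 16.3, 21.3 and 20.1, and the domain of Fcrlb, an Fc receptor-like gene, had 6.33, 3.10, 7.51, 15.2 and 12.9. In the Wdfy3 domain 3 of 4 windows reached F of 4 at 0 hpi and none did at 3 hpi. H3K4Me1 there stayed between 7.87 and 13.5 at all times.

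Growth was followed window by window. At 0 hpi 784 domains, or 54.6% (52.0 to 57.2), already had at least 1 window of H3K27Ac F of at least 4, while only 109 (7.60%) had 3 consecutive ones and 9 had all of theirs. This share of domains with a starting window was 31.8% among domains that grew from 12 hpi and 73.7% among domains of 5 or more windows. Runs of 3 or more windows were present in 287 domains (20%), 671 (46.8%) and 979 (68.2%) at 3, 12 and 24 hpi. Windows of F of at least 4 made up 22.2% of the 6870 at 0 hpi, then 34.9%, 62.6% and 80.3%. At 0 hpi 651 domains (45.4%) had no such window at all.

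**Figure D3:**
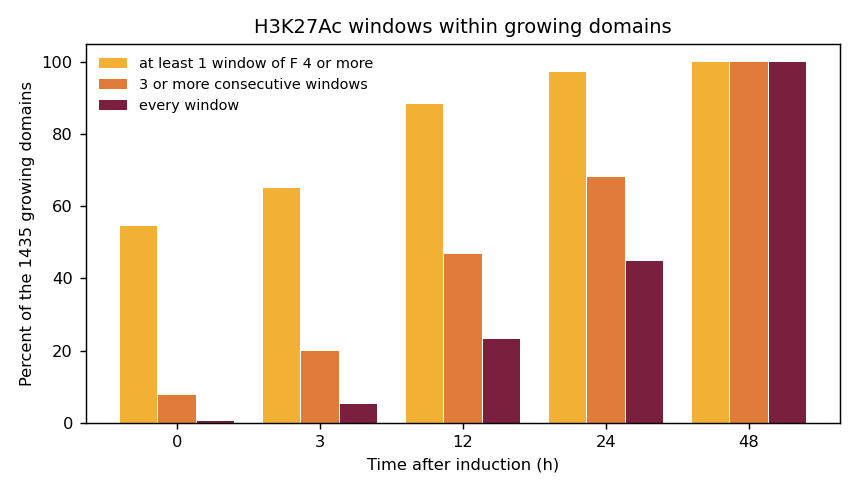
Percent of the 1435 growing domains (y) with at least 1 window of H3K27Ac F of 4 or more (yellow), with 3 or more consecutive ones (orange) and with every window at that level (dark red), at each time (x). The shares at 48 hpi are 100% by the rule; at 0 hpi they are 54.6%, 7.60% and 0.627%.

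The median H3K27Me3 F at 0 hpi was 0.63 both in domains with and in domains without a starting window, while H3K4Me1 at 0 hpi differed. The 784 with one had a median H3K4Me1 F of 4.55 at 0 hpi and 10.2 at 48 hpi, and 53.6% (50.0 to 57.1) held a coding start. The 651 without one went from 1.79 to 10.1 and held a start in 15.7% (12.96 to 18.7). Of the first set 58.2% had 50% of their rise by 12 hpi, and of the second 32.9%. The window that was fullest at 48 hpi was also the fullest at 0 hpi in 47.0% of growing domains, and in 57.6%, 73.8% and 82.0% at the 3 times between. In other broad domains 67.6% kept their fullest window from 0 to 48 hpi. That window had a median of 11.6%, 61.1% and 98.2% of its 48 hpi level after 0, 12 and 24 h, and the 2 end windows 17.5%, 59.2% and 89.7%. These shares use the values that chose the domains and the window, and are a description. A domain could have as few as 3 windows, so its fullest window can coincide between times by position alone. No share was adjusted for this.

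The 10 domains to which most H3K27Ac was added show this filling in detail. The domain with the most held the start of Cd14, the co-receptor for bacterial lipopolysaccharide, with those of Ik, Ndufa2, Tmco6 and E230025N22Rik (chr18:36846001-36912000, 66 kb). It held 1162 tags at 0 hpi (1096 to 1231) and 14200 at 48 hpi (13967 to 14436), and its F was 2.89, 9.53, 19.2, 28.7 and 32.8. At 0 hpi 2 of its 22 windows reached F of 4, at 3 hpi 10, at 12 hpi 20 and from 24 hpi all 22. The 3 kb window with the Cd14 start itself had F of 1.8, 13.3, 23.1, 56.7 and 67.0, so it was low before induction.

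The longest growing domain ran for 93 kb between genes (chr5:53766001-53859000), 88018 bp from the nearest coding start, that of Rbpj, the DNA-binding factor of Notch signalling. Its H3K27Ac tags numbered 1491 (1416 to 1569), 2661, 5009, 11001 and 14004 (13773 to 14238), and its F was 2.63, 4.08, 8.23, 16.9 and 22.9. It had 5, 6, 14, 26 and 31 windows of F of at least 4 out of 31. The median window stood at 0.60 at 0 hpi against 29.8 in the fullest one, and at 48 hpi the median window was at 17.3. H3K4Me1 in the domain went from 3.81 to 16.6.

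Next in order came the domain nearest to Tomm20 (chr8:129321001-129402000, 81 kb), between genes and 67723 bp from that start. Its F was 8.79, 8.57, 16.6, 29.6 and 29.2, with 13 of 27 windows at F of 4 before induction and 12 at 3 hpi. The domain of Mmp8, a collagenase stored in neutrophil granules, and Mmp27 (chr9:7542001-7581000, 39 kb) had F of 2.05, 20.6, 30.8, 41.6 and 39.5. Its windows at F of 4 numbered 2 of 13 at 0 hpi and 13 of 13 at 3 hpi, so the whole stretch was acetylated at the first time after induction. The Mmp8 domain held 487 tags at 0 hpi (445 to 532) and 5636 at 3 hpi. Its 0 hpi value was among those that chose it, and no time had a replicate library. This step is therefore a description, and it was not tested.

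The domain nearest to Tubd1 (chr11:86379001-86451000, 72 kb) overlapped Vmp1, an autophagy gene. Its F was 15.1, 25.2, 26.4, 34.5 and 34.0, and 13, 22, 23, 23 and 24 of its 24 windows reached F of 4. The domain of Ctsd, the lysosomal protease cathepsin D (chr7:149559001-149592000, 33 kb), had F of 2.43, 2.79, 20.6, 38.5 and 41.0. It was the reverse of the Mmp8 domain in timing, since 2 of 11 windows were at F of 4 at both 0 and 3 hpi and 8 at 12 hpi. A domain of 42 kb that began 50586 bp from the start of Cebpb (chr2:167565001-167607000), which encodes the related factor C/EBPβ, had F of 7.37, 13.1, 22.2, 32.6 and 36.4 and H3K4Me1 F of 7.32, 10.6, 27.8, 24.8 and 23.6.

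The Usp32 domain (chr11:84786001-84822000, 36 kb) grew from nearly nothing, with F of 0.55, 3.74, 15.6, 20.6 and 29.3 and 120 tags at 0 hpi (99.5 to 143). None of its 12 windows reached F of 4 at 0 hpi and 11 did at 12 hpi. A domain between genes, 188654 bp from Eea1 (chr10:95625001-95655000, 30 kb), had 1.42, 3.28, 15.6, 28.8 and 35.7. The domain of Mrpl33 (chr5:31896001-31959000, 63 kb) had 4.40, 6.80, 15.2, 17.98 and 20.6. The fifth longest was that of Uck2, a uridine-cytidine kinase gene (chr1:169149001-169215000, 66 kb), with 2.55, 5.24, 12.9, 17.7 and 17.6. Of these 11 domains 6 held a coding start, and the level of no domain fell between 3 and 12 hpi.

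**Figure D4:**
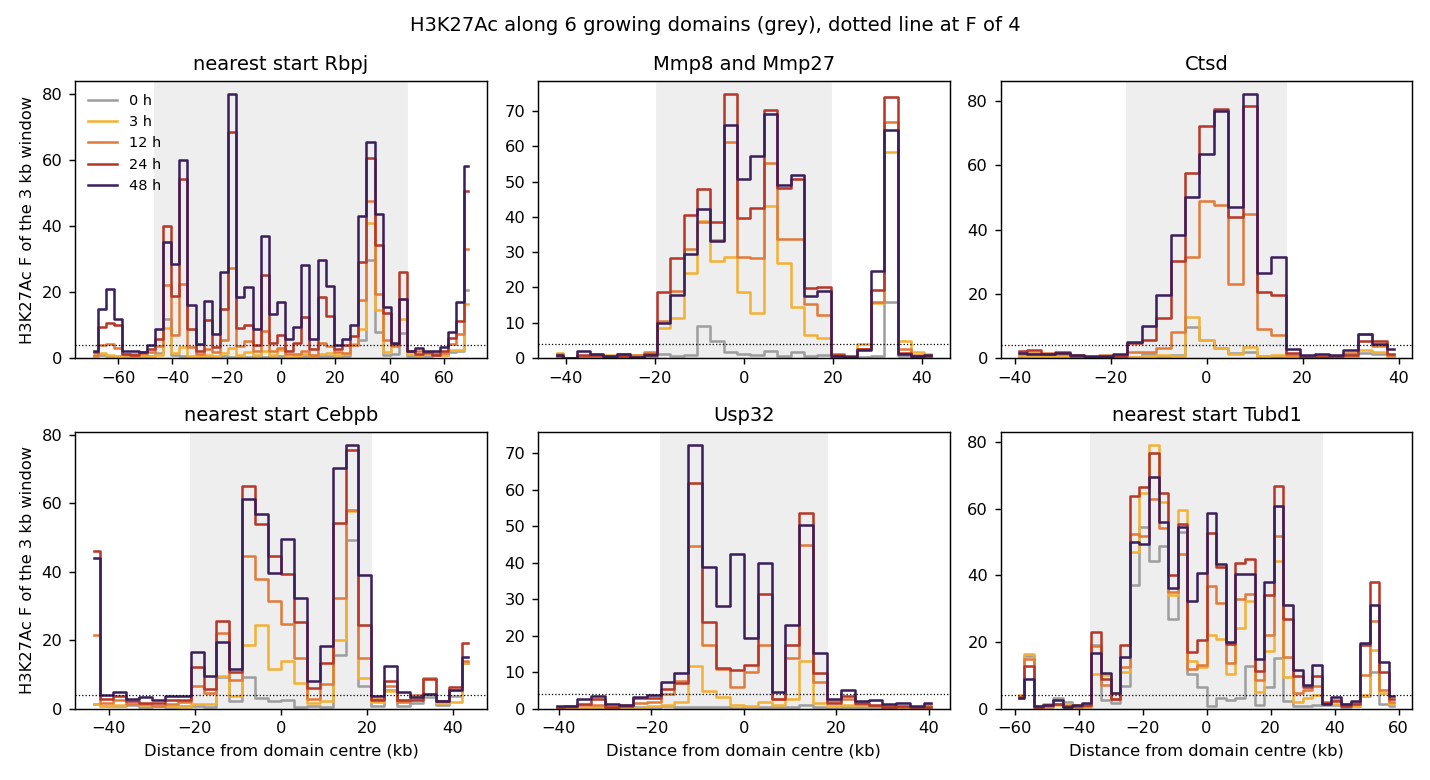
H3K27Ac F of each 3 kb window (y) along 6 growing domains (grey) and the 8 windows on each side, by distance from the domain centre (x, kb), with 1 line per time. The dotted line is F of 4. The Mmp8 domain is filled at 3 hpi, the Ctsd domain from 12 hpi, and the domain near Rbpj joins up from separate islands by 48 hpi.

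The highest ratios belonged to domains of 9 to 21 kb with hardly any tags at the start, where the ratio rests on small counts. The domain inside Cdh1, the E-cadherin gene (chr8:109131001-109140000, 9 kb), had 14 H3K27Ac tags at 0 hpi (7.65 to 23.5) and 1856 at 48 hpi, a ratio of 123. Its F was 0.26, 0.52, 5.86, 26.5 and 31.4, and H3K4Me1 went from 0.55 to 18.7 while H3K27Me3 was 3.04 at 0 hpi and 1.86 at 48 hpi. The domain nearest to Thap1 (chr8:27348001-27360000) had 0.23, 0.63, 3.08, 9.08 and 27.3. The domain between genes on chromosome 1, 72088 bp from Apol7d and about as far from Fn1, the fibronectin gene (chr1:71772001-71784000), had 0.29, 2.28, 14.4, 23.4 and 30.9. The domain of Clec4d, a C-type lectin receptor of myeloid cells (chr6:123201001-123222000), had 0.35, 1.12, 5.10, 18.1 and 36.2. The domain of Gp49a and Lilrb4, neighbouring genes for immunoglobulin-like receptors (chr10:51198001-51219000), had 0.17, 0.41, 2.10, 9.58 and 18.7. These 2 genes are close copies, and tags that fit both were dropped by the authors' filter for unique alignments, so levels there may read low at all times.

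H3K4Me1, which the rule did not use, was higher at 48 than at 0 hpi by a median of 1.55 (log2) in growing domains and by 0.01 in the others. It was at least 2-fold higher in 1055 growing domains, or 73.5% (71.2 to 75.8), beside 4.82% of the other broad domains and 28.4% of all. None of the growing domains had it 2-fold lower. The median F was 3.25, 4.30, 8.17, 9.67 and 10.2. At 0 hpi 1028 growing domains (71.6%) had H3K4Me1 F of at least 2 and 154 (10.7%) had less than the library mean. With libraries set level in windows with little H3K4Me1 the first share was 50.5%. H3K4Me1 was above H3K27Ac at 0 hpi, each on its own scale of F, in 1009 domains. The rule favours low H3K27Ac at 0 hpi, and the same count was not made for the other broad domains. It is therefore a description, from which nothing is drawn.

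The 154 domains with H3K4Me1 F under 1 at 0 hpi were the barest, with a median of 0.66 that went to 0.87, 3.47, 7.09 and 9.10. Their H3K27Ac went from 0.40 to 12.8, 1 of them had a window of F of 4 at 0 hpi, and 20.1% had 50% of the rise by 12 hpi. The 551 with H3K4Me1 F of at least 4 went from 5.76 to 11.8, had such a window in 86.0% and reached 50% by 12 hpi in 58.4%. In the 1055 domains where H3K4Me1 was at least 2-fold higher at 48 hpi, it had covered a median of 9.21% of its distance at 3 hpi, 62.3% at 12 hpi and 89.2% at 24 hpi. H3K27Ac in the same domains had covered 8.23%, 45.3% and 89.3%. At 12 hpi the H3K4Me1 share was the larger one in 754 domains (71.5%). These domains were chosen by both marks at 0 and 48 hpi, so the order of the marks is a description. At 12 hpi the H3K4Me1 share was the larger one in 86.4% and 56.7% of the domains under the other scalings. With libraries set level in windows full throughout the medians were close, at 42.2% for H3K4Me1 and 37.5% for H3K27Ac. At 24 hpi the order turned from 8.53% to 70.3% between the scalings, and at 3 hpi from 76.3% to 28.2%. The H3K27Ac shares start from the 0 hpi library that stood apart on chromosome 12, and the part of this was not tested.

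H3K27Me3 was low in most growing domains, with a median F of 0.63 at 0 hpi and 0.56 at 48 hpi, both above the 0.48 and 0.46 of the other broad domains. The median change was -0.16 (log2) and was 0.04 when libraries were set level in windows with little H3K27Me3, so no direction is given for it. H3K27Me3 was at least 2-fold lower at 48 hpi in 39 growing domains (2.72%, beside 1.49% of all broad domains) and at least 2-fold higher in 3 (0.209%, beside 0.12%). A group of 109 growing domains (7.60%; 6.28 to 9.09) had F of at least 2 at 0 hpi, against 8 (0.292%) of the other broad domains. Their median F was 2.42, 2.40, 3.11, 2.48 and 1.92, and 84 were lower at 48 than at 0 hpi, 12 of them at least 2-fold. Since the 109 were chosen by a high value at 0 hpi and the change depends on the scaling, no direction is drawn from these counts. Their H3K27Ac at 48 hpi, with a median of 14.9, was no lower than that of growing domains as a whole.

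At 48 hpi 69 growing domains had H3K27Me3 F of at least 2 and H3K27Ac with a median of 11.7, and whether both marks lay in the same cells or in different ones cannot be told apart in bulk libraries. The highest starting values were in a pair of domains at P2ry2, a receptor gene for extracellular nucleotides. The domain with its start had H3K27Me3 F of 4.38, 3.60, 5.80, 4.46 and 3.79 while H3K27Ac went from 0.77 to 11.3. The domain 13496 bp from it had 3.84, 4.61, 5.24, 3.44 and 2.75. A domain 3607 bp from Fosb, an AP-1 gene, had 3.83, 3.75, 4.64, 3.26 and 3.82, with H3K27Ac from 1.59 to 6.61. Of the listed myeloid genes, C5ar1, Ccl6, Cxcl2, Fos, Il1b, Lgals3, Mmp9, Ptgs2 and Socs3 started in domains of the group of 109, and Il1b, C5ar1 and Camp in domains where H3K27Me3 was 2-fold lower at 48 hpi. The Il1b domain had 2.20, 2.19, 2.49, 1.64 and 0.65, so its decrease came after 12 hpi.

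A coding start lay inside 522 growing domains, or 36.4% (33.9 to 38.9), against 63.5% (61.7 to 65.3) of the other broad domains. A further 594 (41.4%) overlapped a coding gene without a start and 319 (22.2%) lay between genes. Of the 913 without a start 73.7% lay within 50 kb of one, at a median of 22565 bp, beside the 23234 bp of the other broad domains without one. Growing domains with a start had more H3K27Ac at 0 hpi, with a median of 4.001 against 1.57. Of the 97 growing domains of at least 30 kb 73.2% held a start, and of the 625 of 9 kb 24.3%. The longer ones also cover more sequence each, and no rate per kb was taken. The median length was 12 kb, as in the other broad domains, and 16 growing domains ran for 50 kb or more.

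In all 607 of 22350 coding genes, or 2.72%, had a start inside a growing domain. Among the 224 annotated genes of 7 myeloid lists there were 61, or 27.2% (21.5 to 33.6), in 60 domains, and a further 52 (23.2%) started in other broad domains, where 9.87% of all coding gene symbols did. The lists were written with earlier results of these data known, so the counts are a description. With 3 hpi as the start the 61 became 47, and with 12 hpi they became 17. By 12 hpi 33 of the 61 genes lay in domains that had covered 50% of their rise, and by 24 hpi 57. Of growing domains with a coding start 54.8% and 92.1% had, so these counts are near the share of such domains. Of all growing domains 46.7% and 85.5% had. Of 36 pre-B and B lineage genes 0 started in a growing domain and 24 in other broad domains. Since the rule asks for a 2-fold rise over 0 hpi, genes already full in pre-B cells could hardly enter, and nothing is drawn from this count. Of 21 T lineage, 17 erythroid and megakaryocyte and 14 mast cell, basophil and eosinophil genes 0 started in a growing domain. The upper limits of these shares were 16.1%, 19.5% and 23.2%, above the 2.72% of all coding genes, so lists this short show no difference from it. Of 14 genes that every cell uses, 1 did (Pgk1, a glycolytic enzyme gene) and 8 started in other broad domains.

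Of 42 myeloid transcription factor genes 5, or 11.9% (3.98 to 25.6), started inside growing domains and 19 (45.2%) in other broad domains, among them Cebpb, Irf8 and Sfpi1, which encodes PU.1. The domain of Klf6, a zinc finger factor, had F of 10.1, 12.998, 17.9, 26.1 and 27.6. The domain of Fosl2, an AP-1 subunit, had 2.55, 6.55, 12.0, 16.8 and 20.8, and that of Nfil3, a basic leucine zipper factor, had 1.09, 6.38, 11.6, 17.8 and 23.2. The Nfe2 domain had 5.44, 10.98, 16.7, 19.8 and 13.9. The Fos domain had 5.82, 9.72, 7.95, 15.2 and 14.2.

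Of 48 genes of macrophage surface receptors and adaptors 15 started inside growing domains. Of these domains 0 had 50% of their rise at 3 hpi, beside 14.4% of growing domains with a coding start. Besides Cd14, the domain of Cd33, a sialic acid-binding lectin, had F of 4.86, 14.0, 30.7, 38.2 and 31.5. The domain of Plaur, the urokinase receptor, had 9.48, 10.2, 28.1, 38.7 and 27.2, with most of the difference arising after 3 hpi. Clec4d is given above. Csf1r, the receptor for the cytokine CSF-1, started in a domain of 9 kb (chr18:61263001-61272000) with 3.47, 4.96, 10.6, 22.6 and 13.6 and H3K4Me1 F of 8.94 at 0 hpi. The genes of the integrin chains Itgb2 (2.17, 1.74, 6.46, 16.4 and 18.4) and Itgax (1.62, 2.82, 5.74, 10.6 and 9.32) were also inside.

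Of 42 innate sensing and inflammatory genes 15 were inside growing domains. Tlr4, the lipopolysaccharide receptor, lay in a domain of 45 kb with F of 8.05, 8.25, 11.7, 20.5 and 26.2. The domain of Il1rn, the interleukin-1 receptor antagonist, had 1.10, 2.59, 13.2, 21.9 and 24.2, and that of Il1b, an inflammatory cytokine, had 1.48, 5.79, 19.2, 31.4 and 33.3. Tlr13, a sensor of bacterial RNA, had 1.52, 5.01, 8.99, 18.6 and 17.5. Within this list, on the scale of F, Socs3, a feedback inhibitor of cytokine signalling, was the 1 gene whose domain had 50% of its rise at 3 hpi, with 4.11, 9.78, 8.24, 16.2 and 11.2, and Il6 the 1 gene whose domain had it only at 48 hpi.

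Of 26 chemokine and chemokine receptor genes 6 were inside. Ccl6 (2.60, 7.51, 12.6, 23.8 and 20.8) and Ccl9 (8.25, 17.4, 18.9, 26.02 and 21.2) lay in neighbouring domains on chromosome 11. The domain of the receptor gene Ccr1 had 2.68, 3.30, 8.84, 21.5 and 36.1, with 1.85% of the rise at 3 hpi.

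Lysosome, protease and lipid handling genes followed, with 17 of 45 inside growing domains and a further 10 in other broad domains. All 17 lay in domains with 50% of their rise by 24 hpi, as did 92.1% of growing domains with a coding start. Mmp8 and Ctsd are described above. Lyz1 and Lyz2, the genes of lysozyme, shared a domain of 36 kb with F of 2.36, 9.84, 17.5, 24.8 and 27.7, and as close copies they may also read low. Apoe, which encodes a lipid carrier, had 0.72, 9.42, 17.4, 16.8 and 11.1. Anxa1, an annexin gene, had 1.79, 12.1, 6.90, 9.63 and 11.5. The time of the highest level in the domains of Apoe and Anxa1 depends on the scaling, so none is given. Abca1, a cholesterol exporter, had 3.29, 3.21, 19.3, 24.7 and 25.7, with levels at 0 and 3 hpi close to each other.

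Of the phagocyte oxidase list, the domain of Cybb, the gene of the membrane subunit, had 3.89, 9.90, 15.2, 22.6 and 21.6. The 3 kb window with the Cybb start itself had F of 20.1, 43.6, 35.2, 38.2 and 34.5, so it was already full before induction. Of 15 granulocyte granule genes 1 was inside, Camp, an antimicrobial peptide gene, with 0.57, 1.49, 18.1, 27.7 and 25.2. Among the 60 domains with a listed myeloid start 53.3% (40.0 to 66.3) had 50% of their rise by 12 hpi and 68.3% (55.0 to 79.7) had a starting window, against 46.4% and 54.0% of the other 1375. Among all 522 growing domains with a coding start these shares were 54.8% and 80.5%. Both measures use the H3K27Ac values that chose the domains and are a description. Domains with a listed start were also longer, with a median of 18 kb against 12 kb.

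**Figure D5:**
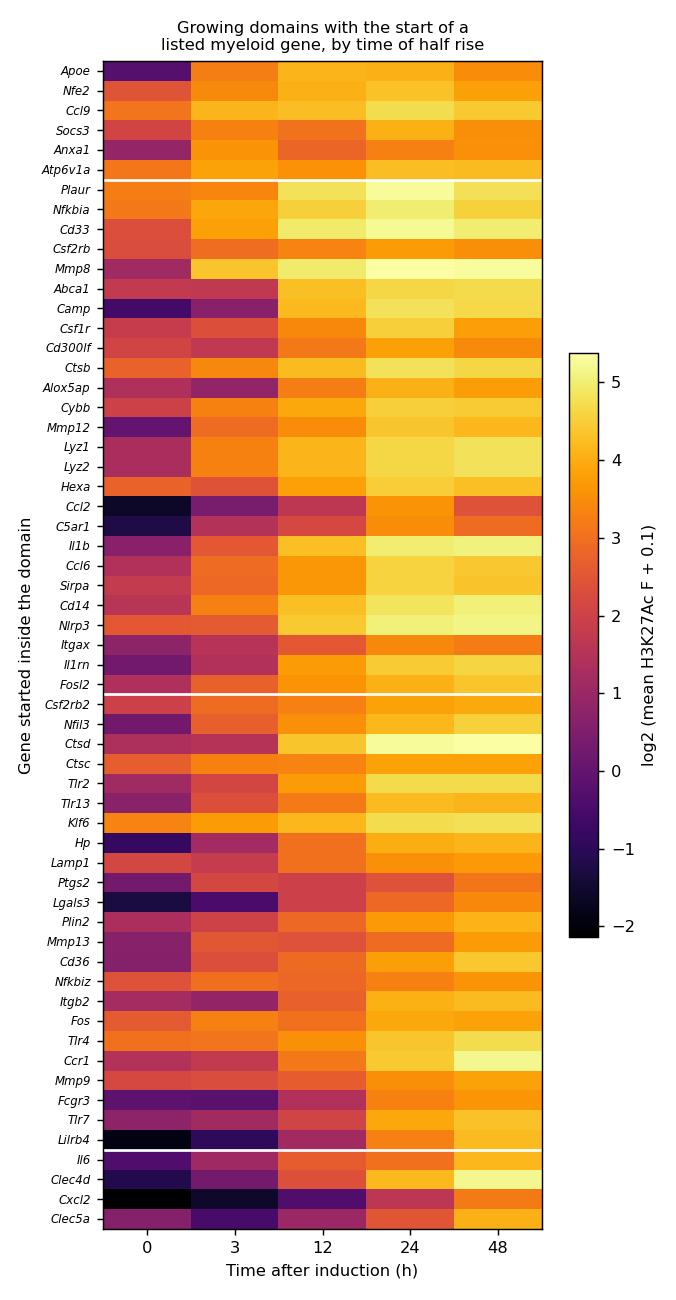
H3K27Ac at the growing domains that hold a start of 59 listed myeloid genes (rows), at the 5 times (columns), as log2 of the mean F with 0.1 added. White lines part the genes by the first time with 50% of the rise: from the top, 6 genes of 3 hpi, 26 of 12 hpi, 23 of 24 hpi and 4 of 48 hpi.

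Sequence content was set beside the other broad domains and beside all windows with a tag. Growing domains had a median GC content of 44.7% and a CpG observed to expected ratio of 0.21, the other broad domains 47.0% and 0.27, and all windows together 41.8% and 0.19. C/EBP matches numbered 4.71 per 10 kb in growing domains, 4.14 in the others and 5.10 in all windows. AP-1 matches numbered 3.74, 3.21 and 3.17, and PU.1 matches 0.84, 0.87 and 0.61. EBF1 matches, whose fixed letters are all C or G, numbered 2.60, 3.64 and 1.82, and among domains without a coding start 2.29 and 3.11. RUNX matches numbered 9.05, 8.82 and 7.73, IRF matches 3.88, 3.54 and 4.52 and E boxes 5.24, 5.69 and 3.98.

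With and without a coding start, AP-1, C/EBP and IRF matches were denser in growing than in other broad domains, and EBF1, PU.1 and E box matches sparser, while RUNX matches without a start were nearly equal (9.18 and 9.16). Median GC content was also lower in growing domains, at 45.9% against 47.9% with a start and 44.3% against 45.6% without. The denser motifs have mostly A or T as fixed letters, and the sparser ones do not. The part of base content in these orders was not tested. In the fullest 300 bases these orders did not hold for all motifs, among them C/EBP without a start (9.86% and 10.5%), IRF with a start (7.85% and 7.99%) and without (9.20% and 9.40%), and E boxes with a start (15.5% and 14.4%). The Mmp8 domain had 35 C/EBP matches, or 8.97 per 10 kb, the Ctsd domain 22, or 6.67, the Cdh1 domain 5, or 5.56, and the domains near Tomm20, Rbpj and Tubd1 4.81, 4.30 and 3.75 per 10 kb. In the fullest 300 bases C/EBP matches were present in 9.69% of growing domains and 9.42% of the others, AP-1 in 8.85% and 6.21% and EBF1 in 7.94% and 14.8%, where 13.7%, 8.84% and 4.76% of the middle 300 bases of all windows held them. The middle stretches, unlike the fullest ones, were placed without regard to exons or tags. All counts here are letter matches only, and no factor's binding was measured in these libraries.

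Growing domains were found on all 20 chromosomes. Their share of the broad domains was between 24.3% (17.8 to 31.96) on chromosome 19 and 47.5% (38.95 to 56.1) on chromosome 13. Of the 1435, 700 had another growing domain within 100 kb.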

How the data were processed

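ChIP-seq tags of H3K4Me1, H3K27Ac and H3K27Me3 were taken as deposited, as 36 bp positions on mm9 with no strand and no score. The authors aligned reads with Eland or Bowtie (version not given in the sources used here), kept unique matches without mismatches and removed identical tags, although the limit on identical tags differed between files, so each position was counted once here. The 15 libraries held 11041458 to 31557475 tags. A total of 3 files ended in 2 lines without a position, which were left out. Tag midpoints were counted in 3 kb windows of chromosomes 1 to 19 and X and divided by the library mean over 832530 windows with a tag. F is therefore relative within a library, with no spike-in, input or replicate. The log2 changes of H3K4Me1 and H3K27Me3 had 0.5 tags added to both counts, and ratios of H3K27Ac had none added. No test between times was possible with 1 library per group, so exact 95% Poisson and binomial intervals cover counting error only, and intervals of medians cover the spread over domains. Gene starts came from GENCODE on the matching assembly, for 22350 coding genes. Domains were named by coding starts inside them or by the nearest one, and those described singly were the 10 with most H3K27Ac added, the 5 longest, the 5 with the highest ratio, the 3 with the largest and smallest share of the rise at 3 hpi (of 1245 with F of at least 8 at 48 hpi), the 3 with most H3K27Me3 at 0 hpi and the 3 on each side of the limit. The domains and gene lists were chosen with earlier results of these data known. The counting was tested on simulated data with planted domains. Python 3.11.15, numpy 2.4.6, pandas 2.3.3, scipy 1.17.1, pysam 0.24.0 and samtools 1.23.1 were used. Single values of a few listed genes are not reported here.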

Additional observations from a re-analysis of the deposited data

How the results depend on the processing

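No paired analysis was possible because there was 1 library per mark and time. Of 14 other settings, 10 left the number of growing domains within 1.5 times 1435. It was 716 with 1 kb windows, 952 with a lowest F of 6, 491 with 5 or more windows and 572 with the 12 hpi library as the start. The median share of the rise at 12 hpi was 37.3% and 40.2% with libraries set level in windows of F under 1 and of F of at least 4, 51.9% with 1 kb windows, 43.9% and 49.4% with a lowest F of 3 and 6, 48.9% and 44.3% at fold limits of 1.5 and 3, 52.2% with 5 or more windows, and 37.9% and 19.9% from 3 and 12 hpi. The median share at 3 hpi ranged from 2.34% (from 12 hpi) to 14.8% (5 or more windows). The median H3K4Me1 change (log2) was 2.24 and 1.37 under the 2 scalings, 1.29 and 1.95 at the 2 fold limits, 1.63 and 2.12 for domains from 3 and 12 hpi, and 1.17 against 3 hpi, an alternative chosen after seeing the data. The median H3K27Me3 change reversed to 0.044 under the first scaling and was -0.26 under the second, -0.22 with 1 kb windows and with a lowest F of 6, -0.12 with a lowest F of 3 and with gaps of 1 window, and -0.088 from 12 hpi. Domains with a starting window made up 58.6% under the second scaling, 73.5% with 1 kb windows, 47.4% and 62.1% with a lowest F of 3 and 6, 64.0% and 39.7% at the 2 fold limits, 73.7% with 5 or more windows, and 51.0% and 31.8% from 3 and 12 hpi. The cause was not tested.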
